A study of Mus musculus with 9 samples.

Results

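The homeobox transcription factors described here were taken by gene symbol: the Hoxa, Hoxb, Hoxc and Hoxd clusters and the Barx, Barhl, Dlx, Lhx, Nkx, Irx, Meis, Pbx, Pknox, Otx, Emx, Gsx, Msx and Pou families, and Six2 to Six6. The symbol rule found 111 genes with 183 probes, of 19057 genes with a symbol and 45281 probes on the array. Of the 111 genes, 4 do not code for protein (Dlx1as, Dlx6os2, Emx2os and Hoxd3os1), and Pou2af1 encodes a coactivator that binds POU proteins and has no homeobox of its own. None of these 5 was tested. The GEO platform annotation gave the symbols, and 63 of the genes had 1 probe.

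Homeobox genes encode transcription factors that bind DNA through the homeodomain, and they give cells of the embryo their regional and lineage identity. Genes of the Hox clusters pattern the body axis and, in the nervous system, the hindbrain and spinal cord, whereas Otx, Emx and Lhx genes and some sine oculis homologs (Six2 to Six6 here) act in the forebrain and midbrain and Dlx, Nkx, Msx and Irx genes divide the neural tube along its dorsoventral axis or into progenitor domains. Meis, Pbx and Pknox proteins form the TALE class, whose members bind DNA together with Hox proteins and with each other. POU proteins join a homeodomain to a second DNA-binding domain, and those of class III are found in neural progenitors.

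Expression was measured on Illumina MouseWG-6 BeadChips in mNS-5 cells, a clonal adherent mouse neural stem cell (NSC) line derived from ES cells and kept in FGF-2 and EGF. Med12 knockdown cells (6 arrays) had been infected with a lentivirus carrying a Med12-specific shRNA, and NS control cells (3 arrays) with one carrying a non-silencing shRNA. Both were selected with 600 ng/ml puromycin from 24 h after infection and harvested at 5.5 days. The cells are 1 clonal line, and the study's methods give a single Med12 shRNA. By the labels the arrays form 3 sets of 2 knockdown arrays and 1 control array, and the knockdown arrays are named here the first and second knockdown series. The methods describe independent biological replicates of each condition, as many as there are sets. Nothing in the sources used here says what the second array of a set is, so the knockdown n of 6 counts arrays, and p-values measure the spread between arrays, which may in part be technical.

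Med12 is a subunit of the kinase module of Mediator, the complex that links transcription factors to RNA polymerase II. It averaged 137 ± 26.6 intensity units in Med12 knockdown cells (SD, n = 6) and 326 ± 51.2 in NS control cells (SD, n = 3), with no overlap between the groups. The values are background-subtracted and quantile-normalized intensities, which can be negative. A probe was taken as above background over a limit of 16.9, which 18654 to 18690 probes exceeded per array. Of 9 NSC markers, 6 (Nes, Sox2, Vim, Fabp7, Olig2 and Slc1a3) were above the limit on all 9 arrays and were tested, and none was called. The others, Msi1, Pax6 and Sox1, were above it on fewer than 3 arrays and were not tested. The 6 tested NSC markers summed to 33288 to 37117 units on the Med12 knockdown arrays and to 33574 to 36194 on the NS control arrays. Slc1a3 was the largest part of these sums, while the log2 fold changes of the 6 had a median of -0.27. Of 9 neuronal markers, 3 were tested (Dcx, Map2 and Syp), while Tubb3, Rbfox3 and Stmn2 were above the limit on no array. Summed levels of the 3 tested lay at 6590 to 8311 units in Med12 knockdown cells, above the 5473 to 6301 units of NS control cells. Most of that sum was Map2, at 7285 ± 710 in Med12 knockdown cells (SD, n = 6) and 5772 ± 496 in NS control cells (SD, n = 3), and none of the 3 neuronal markers tested was called. Sums of the 6 astrocyte markers lay at 20188 to 30467 in Med12 knockdown cells and 17676 to 20203 in NS control cells, ranges that overlapped. Most of that sum was Aldoc, with means of 19011 in Med12 knockdown cells and 12018 in NS control cells. Gja1, the next largest, alone had a lower mean in Med12 knockdown cells, at 5341 against 6282, and was not called. Of these genes 2, Aldh1l1 and Aldoc, were called higher. Of 9 pluripotency markers, 6 were tested, and these summed to 124 to 208 units in Med12 knockdown cells and 210 to 225 in NS control cells. Esrrb was called lower, and Dppa3 and Tdgf1 were above the limit on no array. The part of these shifts in the results that follow was not tested. In bulk samples, fewer cells of a type and less RNA per cell cannot be told apart.

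Many homeobox genes were not above background. On all 9 arrays, 25 of the 111 (22.5%) had a probe above the limit, against 43.4% of all genes with a symbol. On no array did 41 of them (36.9%) exceed it, against 28.4% of all genes. Between those, 28 genes were above it on 1 or 2 arrays by their best probe. Background alone passes the limit on an array at a one-sided p of 0.05. Of these 28, 18 were above it on knockdown arrays only, 5 on NS control arrays only and 5 on both, and there were more knockdown arrays than control arrays in which to exceed it. No probe of the 69 genes that were not tested had a value above 38.7. Per array, 35 to 46 homeobox genes exceeded the limit with any probe in Med12 knockdown cells and 34 to 41 in NS control cells. The 42 genes above the limit on at least 3 arrays by their best probe entered the comparison. At the strict limit of 24.0, 31 genes were above it on at least 3 arrays and 21 on all 9.

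Detection differed by family. All 8 Meis, Pbx and Pknox genes were tested and 7 of them were above background on all 9 arrays, Meis3 being the exception. The Hoxa cluster had 4 of its 10 genes above background on all arrays. No Hoxb or Hoxd gene was above background on 3 or more arrays, and 8 of the 10 Hoxb genes were above it on none. Among the Nkx genes 4 of 12 were tested, none of them above background on every array. Of the 8 Dlx genes, 4 were tested, and Dlx1 alone was above background on all arrays. A probe's brightness depends on its sequence as well as on its transcript, so levels are compared between groups and not between genes.

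**Figure D1:**
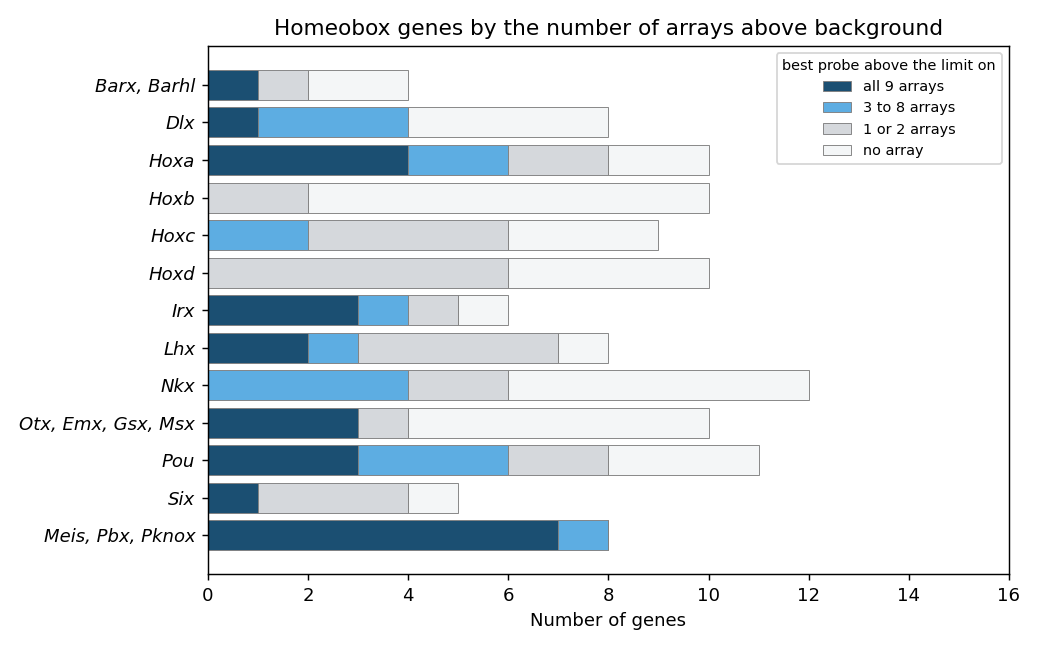
Bars give the number of homeobox genes in each family, divided by the number of arrays on which the best probe of the gene was above the background limit of 16.9. Meis, Pbx and Pknox genes were above it on all 9 arrays in 7 of 8 cases, and Hoxb and Hoxd genes in none.

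The Hox genes above background on every array were all in the Hoxa cluster. In Hoxa, on chromosome 6, Hoxa2, Hoxa4 and Hoxa5 were above background on all 9 arrays, Hoxa7 on 8 and Hoxa3 on 6, while Hoxa6 and Hoxa9 were above it on 1 and Hoxa10 and Hoxa11 on none. Hoxa13, at the posterior end of the cluster, was again above it on all 9 by its best probe. Another of its 3 probes was above it on 8 arrays and the last on none. In Hoxc, on chromosome 15, Hoxc10, which acts in lumbar motor neurons, was above background on 5 arrays and Hoxc13 on 3. In Hoxb (chromosome 11) and Hoxd (chromosome 2) no gene exceeded 2 arrays. Hoxa7 was above it on 6 of 6 Med12 knockdown arrays and 2 of 3 NS control arrays, and Hoxa3 on 4 of 6 and 2 of 3.

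**Figure D2:**
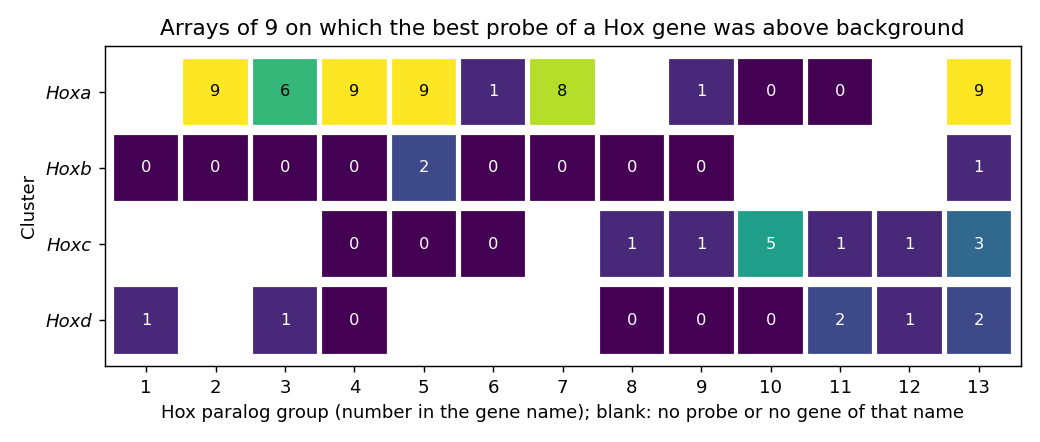
Each square is a Hox gene, placed by cluster and by the number in its name, and the printed value is the number of arrays of 9 on which its best probe was above background, with lighter colours for more arrays. Values of 9 stand only in the Hoxa row, at Hoxa2, Hoxa4, Hoxa5 and Hoxa13.

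The 250 bases before the annotated start of Hoxa5 are shown as an example from the part of the Hoxa cluster that was above background. Beside them are those of Msx3, the only gene called lower in Med12 knockdown cells with a promoter sequence available (none for Barx2, Pknox1 or Dlx3). Both are RefSeq sequences of build GRCm38.p6, read 5′ to 3′ on the gene's strand with every CG dinucleotide in capitals. The Hoxa5 window is chr6:52204588-52204837 and the Msx3 window chr7:140049089-140049338, both on the minus strand.
Hoxa5: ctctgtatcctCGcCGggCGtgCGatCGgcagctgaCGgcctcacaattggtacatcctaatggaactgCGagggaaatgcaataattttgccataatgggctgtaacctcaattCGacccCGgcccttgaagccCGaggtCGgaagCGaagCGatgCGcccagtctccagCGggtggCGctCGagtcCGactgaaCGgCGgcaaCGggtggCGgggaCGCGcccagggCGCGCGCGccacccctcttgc
Msx3: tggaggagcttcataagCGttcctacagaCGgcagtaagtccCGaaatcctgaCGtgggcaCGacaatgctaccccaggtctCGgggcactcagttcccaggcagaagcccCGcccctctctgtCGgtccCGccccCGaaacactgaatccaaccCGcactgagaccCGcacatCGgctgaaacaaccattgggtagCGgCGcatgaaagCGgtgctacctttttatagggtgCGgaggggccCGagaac
The Hoxa5 window held 28 CG dinucleotides, with 63.6% G and C and an observed over expected CG ratio of 1.11. The Msx3 window held 18, with 60.0% G and C and a ratio of 0.81. Neither held TAATTA, which many homeodomains bind, nor TGACAG, bound by Meis and Pknox proteins, nor TGATTGA, bound by Pbx with Hox proteins, on either strand. This says only that these letters were not in the windows.

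The promoter table held 87 windows of 75 of the 111 genes. Their median G and C content was 60.8% and their median CG ratio 0.67, against 52.4% and 0.37 over all 32851 windows in the table. The difference was also there in the 34 windows of genes above background on no array, with medians of 58.6% and 0.66, beside 63.2% and 0.71 in the 18 windows of genes above it on all 9 arrays. TAATTA was found in 5.75% of the homeobox windows and 4.84% of all windows, TGACAG in 13.8% and 15.9%, and TGATTGA in 4.60% and 2.34%, counting both strands. TAATTA is its own reverse complement, and none of the motifs contains another.

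Setting Med12 knockdown against NS control cells asked which homeobox genes differed after Med12 depletion in these NSCs. Of the 42 homeobox genes tested, 4 were lower in Med12 knockdown cells (Barx2, Pknox1, Dlx3 and Msx3) and 0 were higher, at an adjusted p of 0.05 or less (limma, Benjamini-Hochberg over 10757 genes). Over all genes tested, 3.81% were called lower and 6.56% higher, so that 10.4% were called in either direction, beside 4 of 42 homeobox genes (9.52%). With the set number as a replicate block, 5 homeobox genes were lower (Meis2 added, adjusted p = 0.0301) and 1 was higher (Pbx4, adjusted p = 0.0318). With the 2 knockdown arrays of a set averaged, 2 were lower, Barx2 and Pknox1, and Dlx3 and Msx3 had adjusted p-values of 0.0643 and 0.0750. At an unadjusted p under 0.05, 7 homeobox genes were lower and 3 higher, against 12.2% and 14.6% of all genes tested. With the study's further threshold of a 2-fold change, Barx2 alone was lower, against 0.781% of all genes tested, and no homeobox gene was higher, against 3.02%. The median log2 fold change of the 42 genes was 0.04, beside 0.00 over all genes tested. As 69 of the 111 genes did not pass the filter, these counts describe the measured ones only. Values of the groups did not overlap for 5 genes lower in Med12 knockdown cells (Barx2, Pknox1, Dlx3, Msx3 and Pou3f3) and 1 higher (Pbx4), against 8.39% and 10.6% of all genes tested. Another 5 of the 42 genes (Dlx5, Hoxc13, Nkx2-5, Nkx6-1 and Pou5f1) were above background on 3 or 4 Med12 knockdown arrays and on no NS control array, and none of these was called. These passed the filter through knockdown arrays alone, and a gene above background on control arrays only would have needed all 3 of them. Their direction therefore follows in part from the filter, and the share of all genes with this pattern was not counted.

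Of the 38 genes not called, 23 had a log2 fold change above 0 and 15 below. The 23 include the 5 that passed the filter through knockdown arrays alone. With values below 16 set to 16, the log2 fold changes of the 38 lay between -0.77 (Meis2) and 0.71 (Pbx4). For genes near background the size rests on that step: with values below 1 set to 1 instead, the log2 fold changes were 2.09 for Nkx2-5, 2.10 for Nkx6-1, 1.74 for Hoxc13, 1.42 for Pou5f1, 1.33 for Dlx5, -1.30 for Hoxc10 and -1.41 for Meis3, none of them called. Both group means were under 100 intensity units for 30 of the 42 genes. Precision is limited throughout by the small number of arrays.

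**Figure D3:**
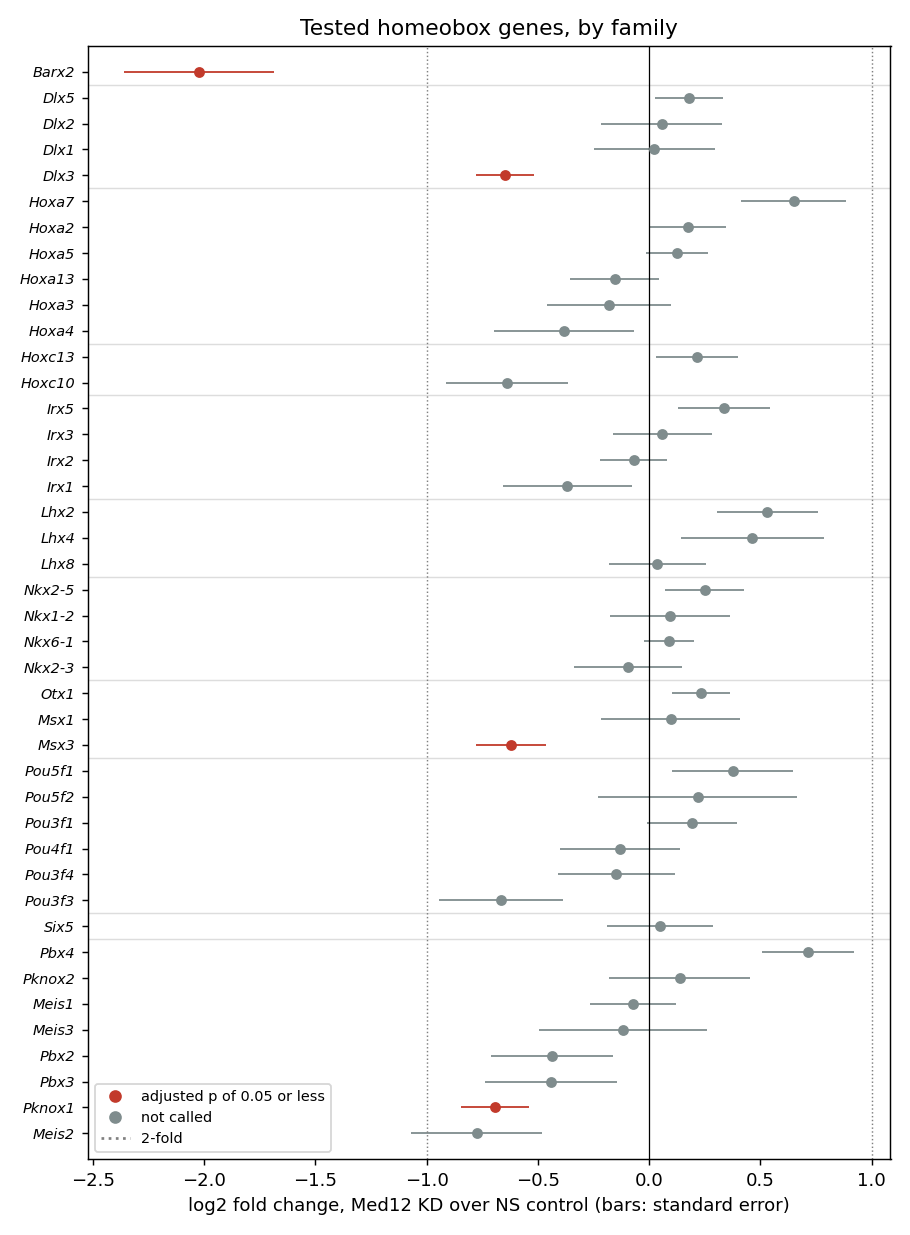
Points give the log2 fold change of Med12 knockdown over NS control for each of the 42 tested homeobox genes, ordered by family, with bars of 1 standard error, and red points were called. Barx2 lies at -2.02, beyond the 2-fold lines, and the other 3 called genes lie between -0.69 and -0.62.

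Barx2, a Bar-family factor known from myogenesis, chondrogenesis and the control of cell adhesion genes, was the homeobox gene with the lowest fold change. Its intensities were 56.6, 39.7 and 45.5 in the first knockdown series and 19.6, 38.9 and 40.4 in the second, against 252, 108 and 138 in NS control cells. None of the knockdown arrays reached the lowest control array. Barx2 averaged 40.1 ± 12.0 in Med12 knockdown cells (SD, n = 6) and 166 ± 76.2 in NS control cells (SD, n = 3). The log2 fold change was -2.02 (standard error 0.34, adjusted p = 0.00561 from limma). The two-sided exact permutation p was 0.0119, the lowest possible with 84 splits, and it was the same for Pknox1, Msx3 and Dlx3. These splits leave the sets aside and treat the 2 knockdown arrays of a set as independent. Barx2 kept its call under all 25 alternative settings, with log2 fold changes of -2.31 to -1.22 and adjusted p-values of 0.00107 to 0.0492. Its second probe was below the limit on all 9 arrays. The gene lies on chromosome 9 at 31846044 to 31913285 (GRCm38.p6, as for the positions that follow). Its relatives Barx1, Barhl1 and Barhl2 were not tested, with Barhl1 above background on 2 knockdown arrays and the other two on none.

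Pknox1, a TALE factor that pairs with Pbx proteins, was lower on its brighter probe. Intensities were 248, 270 and 193 in the first knockdown series and 186, 227 and 255 in the second, against 392, 325 and 389 in NS control cells. The groups did not overlap, and means were 230 ± 34.3 in Med12 knockdown cells (SD, n = 6) and 369 ± 37.8 in NS control cells (SD, n = 3). The log2 fold change was -0.69 (standard error 0.15, adjusted p = 0.0204 from limma). The second probe averaged 77.8 in Med12 knockdown cells and 101 in NS control cells, and on it the groups overlapped, with a log2 fold change of -0.34 (adjusted p = 0.371 over all probes in limma, where 3.02% of 16992 probes were called lower and 4.77% higher, beside 4 and 0 of 56 homeobox probes). With the mean of both probes the adjusted p was 0.0609, and without NS control replicate 1 or 3 it was 0.0696 or 0.0825. Pknox1 lies on chromosome 17 at 31564722 to 31607693.

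Msx3, a factor of the dorsal neural tube, had intensities of 50.2, 36.8 and 49.0 in the first knockdown series and 38.1, 51.1 and 43.9 in the second, against 65.7, 59.9 and 81.3 in NS control cells. The groups did not overlap. The log2 fold change was -0.62 (standard error 0.16, adjusted p = 0.0344 from limma). The call was lost in 13 of 25 alternatives, among them leaving out any single NS control array, where the adjusted p was 0.0747, 0.0549 or 0.141, and leaving out Med12 knockdown replicates 2, 1_2 or 3_2, where it was 0.0569, 0.0559 or 0.0580. The other 2 probes of Msx3 were above the limit on at most 1 array. Msx3 lies on chromosome 7 at 140046157 to 140049088. Msx1, its relative in craniofacial and neural crest development, averaged 49.5 ± 12.4 in Med12 knockdown cells (SD, n = 6) and 48.6 ± 20.5 in NS control cells (SD, n = 3), with overlapping groups.

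Dlx3, known for its part in epidermal, placental and bone development, was near background. Its intensities were 2.4, 13.8 and 4.9 in the first knockdown series and 11.8, 18.5 and 18.5 in the second, against 30.4, 26.6 and 22.6 in NS control cells. Only 2 of 6 knockdown arrays but 3 of 3 control arrays exceeded the limit, and the groups did not overlap. The log2 fold change was -0.65 (standard error 0.13, adjusted p = 0.0132 from limma), computed with values below 16 set to 16, which replaced 4 of the 6 knockdown values. With values below 1 set to 1 instead, the log2 fold change was -1.50 (adjusted p = 0.184), and with 50 added before log2 it was -0.32 (adjusted p = 0.103). Without NS control replicate 1 or 2 the adjusted p was 0.0528 or 0.0501. Dlx3 lies on chromosome 11 at 95120117 to 95125296. Of the other Dlx genes, which act in forebrain interneuron development, Dlx1 averaged 35.2 ± 9.63 in Med12 knockdown cells (SD, n = 6) and 35.1 ± 13.1 in NS control cells (SD, n = 3). Dlx2 was above background on 2 knockdown arrays and 1 control array, and Dlx5 on 3 knockdown arrays and no control array.

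**Figure D4:**
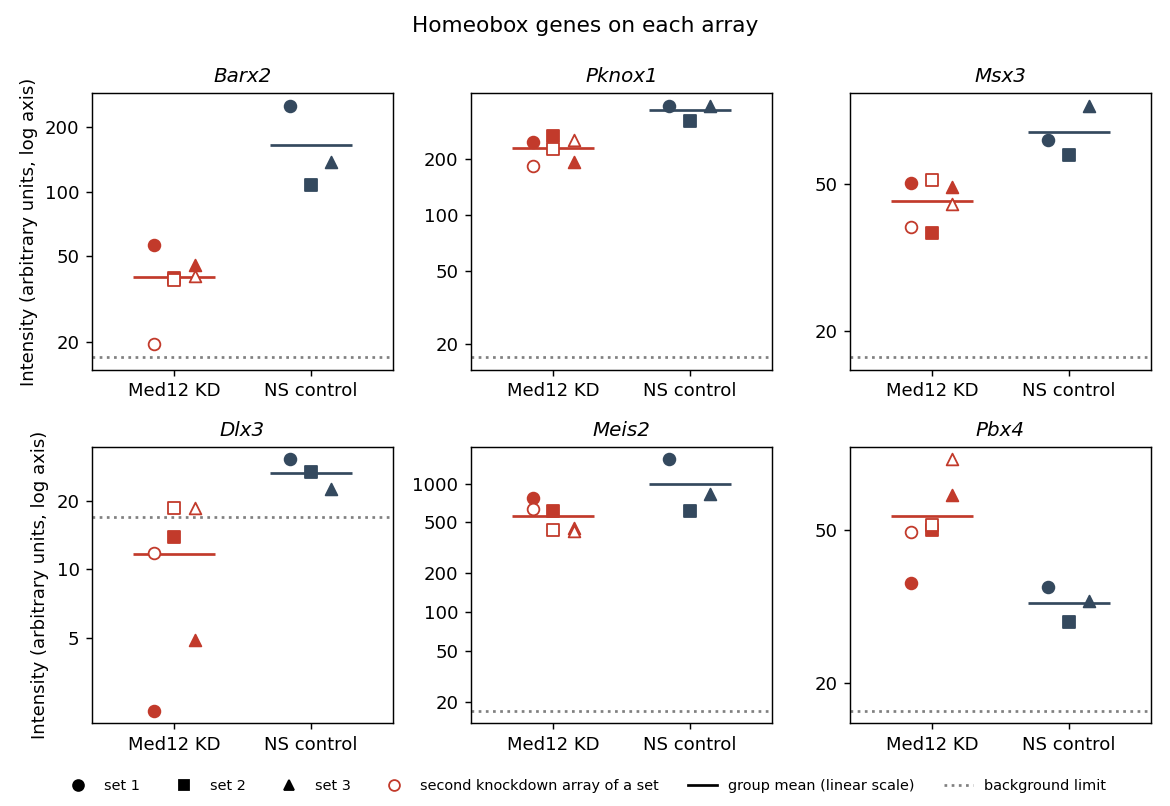
Each point is the intensity of a gene on 1 array, on a log axis, with Med12 knockdown left of NS control, marker shape for the set, open markers for the second knockdown array of a set, a bar for the group mean and a dotted line at the background limit of 16.9. The groups are apart for Barx2, Pknox1, Msx3, Dlx3 and Pbx4, and the knockdown range of Meis2 overlaps that of the control.

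Among the TALE genes, which bind with Hox proteins as cofactors, Pknox1 was called and the fold changes of the 8 genes had a median of -0.28. Meis2, which acts in neural crest and in the developing striatum, had on its brighter probe 777, 613 and 452 in the first knockdown series and 638, 436 and 426 in the second, against 1553, 618 and 834 in NS control cells. NS control replicate 2 lay within the knockdown range. The log2 fold change was -0.77 (standard error 0.29, adjusted p = 0.119 from limma), and a second probe gave -0.87. With the set number as a replicate block the adjusted p of Meis2 was 0.0301, and the gene was then called lower. Without NS control replicate 1 the log2 fold change was -0.40. Meis1, needed for blood stem cells and active in neural development, averaged 1275 ± 156 in Med12 knockdown cells (SD, n = 6) and 1382 ± 470 in NS control cells (SD, n = 3), with overlapping groups.

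Pbx4, a Pbx gene known best from the testis, had 36.4, 50.1 and 61.7 in the first knockdown series and 49.3, 51.4 and 76.4 in the second, against 35.6, 28.8 and 32.7 in NS control cells. The groups did not overlap, but less than 1 unit lay between the nearest arrays, both of set 1. The log2 fold change was 0.71 (standard error 0.21, adjusted p = 0.0556 from limma), which missed the threshold. It was called higher in 6 of 25 alternatives, with an adjusted p of 0.0318 with the set as a replicate block and 0.0256 without Med12 knockdown replicate 1. A second probe, above background on 4 arrays, gave a log2 fold change of 0.07. Of the other Pbx genes, which are broadly expressed Hox cofactors, Pbx2 had a log2 fold change of -0.44 and Pbx3 of -0.44, with adjusted p-values of 0.343 and 0.375 from limma.

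None of the 8 tested Hox genes was called. Hoxa5, which patterns the cervical spinal cord among other tissues, averaged 3983 ± 492 in Med12 knockdown cells (SD, n = 6) and 3640 ± 322 in NS control cells (SD, n = 3), and its log2 fold change was 0.12 (standard error 0.14, adjusted p = 0.608 from limma). Hoxa2, which acts in hindbrain segments, averaged 699 ± 99.1 in Med12 knockdown cells (SD, n = 6) and 622 ± 125 in NS control cells (SD, n = 3), at 0.17 ± 0.17 (SE) as a log2 fold change. Hoxa4, which patterns the neck region, averaged 82.8 ± 29.4 in Med12 knockdown cells (SD, n = 6) and 101 ± 7.61 in NS control cells (SD, n = 3). For all of these the groups overlapped.

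Of the Hox genes, Hoxa7 and Hoxc10 had the smallest unadjusted p-values within their clusters. Hoxa7, a gene of the trunk region, had 36.3, 23.1 and 34.9 in the first knockdown series and 27.8, 41.3 and 22.6 in the second, against 17.1, 26.1 and 15.8 in NS control cells. Its log2 fold change was 0.65 (adjusted p = 0.107 from limma), and NS control replicate 2 lay within the knockdown range. Hoxc10, which acts in lumbar motor neurons, was above background on 3 of 6 knockdown arrays and 2 of 3 control arrays, with a fold change of -0.64 on the log2 scale (limma adjusted p = 0.164). Without NS control replicate 1, which had 5.4 units, the log2 fold change of Hoxc10 was -1.04 and the adjusted p 0.0166. Hoxc13, known for its part in hair and nail, was above the limit on 3 knockdown arrays and no control array, at -3.9 to 26.8 units in Med12 knockdown cells and -3.2 to 7.5 in NS control cells (limma adjusted p = 0.486).

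Among POU genes, none of the 6 tested was called. Pou3f1, also known as Oct6 and expressed in Schwann cell and neural progenitors, averaged 3720 ± 580 in Med12 knockdown cells (SD, n = 6) and 3317 ± 920 in NS control cells (SD, n = 3), or 0.19 ± 0.20 (SE) as a log2 fold change. Pou3f3, also called Brn1 and a regulator of upper-layer cortical neurons, had 45.3, 38.9 and 54.7 in the first knockdown series and 55.8, 21.7 and 53.3 in the second, against 63.4, 69.2 and 71.7 in NS control cells. The groups did not overlap, but the log2 fold change of -0.67 did not pass the test (standard error 0.28, adjusted p = 0.153 from limma). Pou3f4, a factor of the inner ear and forebrain, averaged 79.5 ± 21.5 in Med12 knockdown cells (SD, n = 6) and 85.5 ± 13.3 in NS control cells (SD, n = 3). Pou5f1, the pluripotency factor Oct4, was above the limit on 3 of 6 knockdown arrays and on no control array, at 7.1 to 33.2 units in Med12 knockdown cells and 1.7 to 13.1 in NS control cells. The groups overlapped (limma adjusted p = 0.408). Pou5f1 has several near-identical pseudogenes, which a probe may not tell apart.

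Of the forebrain, midbrain and progenitor-domain families, no Irx, Lhx, Nkx or Otx gene was called. Otx1, which acts in the forebrain and midbrain, averaged 667 ± 47.1 in Med12 knockdown cells (SD, n = 6) and 570 ± 88.5 in NS control cells (SD, n = 3), or 0.23 ± 0.13 (SE) as a log2 fold change (limma adjusted p = 0.279). Irx5 averaged 532 ± 126 in Med12 knockdown cells (SD, n = 6) and 412 ± 38.0 in NS control cells (SD, n = 3), and its log2 fold change was 0.34 (standard error 0.21). Irx3 and Irx2, relatives of Irx5 that pattern the neural tube and other organs, had log2 fold changes of 0.06 and -0.07. The brightest Irx2 probe and the next 2 differed in sign, at -0.07, -0.47 and 0.17.

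Lhx2, needed for cortical and eye development, had intensities of 57.3, 33.0 and 49.4 in the first knockdown series and 68.0, 47.6 and 51.7 in the second, against 31.0, 46.1 and 29.0 in NS control cells. Set 2 ran against sets 1 and 3, and the log2 fold change was 0.53 (standard error 0.23, adjusted p = 0.165 from limma). Lhx4, of pituitary and motor neuron development, and Lhx8, of cholinergic neurons, had log2 fold changes of 0.46 and 0.04. Nkx1-2, found in axial progenitors, and Nkx2-3, of gut and spleen, had log2 fold changes of 0.09 and -0.09. Nkx2-5, a heart factor, was above background on 4 knockdown arrays and no control array, at 7.0 to 28.0 units in Med12 knockdown cells and -1.5 to 8.3 in NS control cells (limma adjusted p = 0.403). Six5, the one sine oculis homolog tested, averaged 81.2 ± 22.9 in Med12 knockdown cells (SD, n = 6) and 77.0 ± 15.3 in NS control cells (SD, n = 3).

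Since each set held 1 control array and 2 knockdown arrays, differences were also taken within sets. The log2 difference of Barx2 was -2.92, -1.46 and -1.69 in sets 1, 2 and 3. The within-set differences were -0.87, -0.40 and -0.81 for Pknox1, -0.59, -0.47 and -0.81 for Msx3 and -0.93, -0.63 and -0.39 for Dlx3. All 4 called genes were thus lower in each of the 3 sets, and the differences of Pbx4 were 0.25, 0.82 and 1.07. As the groups did not overlap for the 4 called genes or Pbx4, these signs were fixed ahead of any pairing. They add no support to the calls. With the set number as a replicate block, the counts over all genes tested were 751 lower and 1137 higher, against 410 and 706 without the block. Between the second and the first knockdown series, limma called 0 of the 10757 genes, and the smallest adjusted p of a homeobox gene was 0.993.

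**Figure D5:**
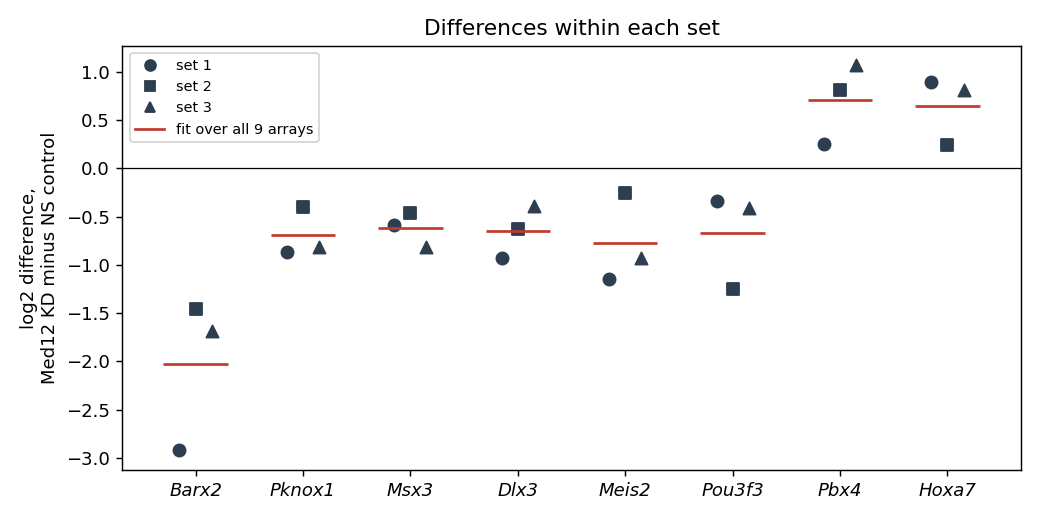
Points give the log2 difference of the knockdown mean minus the NS control array within each set, by marker shape, and red bars the log2 fold change of the fit over all 9 arrays. Barx2, Pknox1, Msx3, Dlx3, Meis2 and Pou3f3 are below 0 and Pbx4 and Hoxa7 above 0 in all 3 sets, with Barx2 ranging from -2.92 to -1.46. For all of these but Meis2 and Hoxa7 the groups did not overlap, which fixes the sign in every set.

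Homeobox genes outside the symbol rule were taken from 4 lists: other ANTP-class genes, other LIM and TALE genes, paired-class genes, and zinc finger, CUT and PROS genes. Of 86 genes listed, 75 were on the array and 39 were tested, of which 2 were higher and 0 lower, against 6.56% and 3.81% of all genes tested, with a median log2 fold change of 0.06. Both higher genes were zinc finger homeobox genes. Zhx1, a transcriptional repressor, averaged 683 ± 224 in Med12 knockdown cells (SD, n = 6) and 237 ± 40.6 in NS control cells (SD, n = 3), or 1.48 ± 0.25 (SE) as a log2 fold change (limma adjusted p = 0.00645). Zfhx3, a large factor involved in neuronal differentiation, averaged 182 ± 40.5 in Med12 knockdown cells (SD, n = 6) and 102 ± 5.55 in NS control cells (SD, n = 3), or 0.81 ± 0.19 (SE) as a log2 fold change (limma adjusted p = 0.0279). The 12 tested ANTP-class, 5 LIM and TALE and 4 paired-class genes held no call, and 18 zinc finger, CUT and PROS genes held the 2 named. With the set as a replicate block En1, an ANTP-class gene of the midbrain and hindbrain, was also higher.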

How the data were processed

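RNA of mNS-5 cells was labelled as biotinylated cRNA and hybridised to Illumina MouseWG-6 BeadChips. In GenomeStudio (version not given in the sources used here) the authors applied background subtraction and quantile normalization, and they deposited linear intensity values, on which all results rest. The 9 signal columns of another table, without normalization, carry names that match no sample and were not used, nor were the columns of detection values beside them. Every array held 45281 probes, with a median intensity of 8.9 to 9.0 and 33.4% to 33.5% of values below 0. Mirroring these at 0 gave a background SD of 10.3, and from it limits of 16.9 (0.05, one-sided) and 24.0 (0.01, strict). Symbols came from the platform annotation, with 34885 probes having 1 symbol, 18 several and 10378 unnamed here.

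A floor of 16 was applied ahead of log2, which can change the fold change of dim genes in size and, in some, in sign. The brightest probe above the limit on at least 3 arrays stood for each of 10757 genes. The 6 Med12 knockdown arrays were compared with the 3 NS control arrays in two-sided tests with limma 3.58.1 (lmFit, eBayes) under R 4.3.3, and p-values were adjusted by Benjamini-Hochberg over those genes. The paper's text names no test for the arrays. Single genes were also tested by exact permutation over the 84 splits of the arrays. The normal quantiles of the background limits came from scipy 1.17.1. Where no array of a group exceeded the limit, the text on that single gene gives values with no fold. Log2 fold changes of such genes are still in the counts, in the plot of all tested homeobox genes and among those with values below 1 set to 1. Their size rests on background values in that group.

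The set numbers of the labels pair the arrays: the deviations of the knockdown mean and the control of the same set correlated over genes at 0.35, 0.18 and 0.18. Between the first and second knockdown series the same-set correlations were 0.46, 0.07 and 0.26, and set 2 of each series correlated more with set 3 of the other (0.14 both ways). Named genes are those called, up to 3 with the highest mean intensity and the one with the smallest p in each family, any above background on every array of one group and none of the other (there were none), any with probes of opposite sign of which 1 was called (there were none), and up to 4 called genes of each further list (other homeobox genes, cofactors, Polycomb, Trithorax and H3K27 demethylases, and cell type markers). Others are named where a comparison needed them, after their values were seen. The homeobox genes, the lists and the rule were chosen with earlier results of these data known. Alternatives covered the floor, an offset, the filter, the probe, the set as a block, the treatment of the knockdown series, array weights, the variance prior, normalization and leaving out each array. The fit was tested on simulated data. Figures were drawn with matplotlib 3.10.9.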

Additional observations from a re-analysis of the deposited data

Results flagged for a closer look

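Among the 6 Med12 knockdown arrays, 3 of the 42 tested homeobox genes had an array far from the others. This was judged on the log2 scale after values below 16 were set to 16. Chance marks about 1 group in 20, a rate that does not allow for values set to 16. For Barx2 the lowest array, replicate 1_2 at 19.6, was separated from the next by 0.646 of the group's range. For Pou3f4 the lowest array, replicate 3 at 40.9, was separated by 0.641 of the range. For Nkx2-5 the highest array, replicate 2 at 28.0, was separated by 0.637 of the range. Its knockdown values of 7.0 and 13.3 had been set to 16, which shortened that range, so the Nkx2-5 flag rests on this step. Leaving out 1 array at a time kept the call of Barx2, at adjusted p-values of 0.00434 to 0.0222, and called neither Pou3f4 nor Nkx2-5.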

How the results depend on the processing

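Across 25 alternative settings, of which 2 were chosen after seeing the data, no called gene changed sign, 35 of the 38 genes not called were never called, and 19 of those 38 changed sign at least once. Barx2 was called throughout. The number of homeobox genes called lower, 4, became 2 with 50 added before log2, 2 with the mean of the knockdown arrays of a set, 2 with eBayes run with trend and robust, 2 without the 3 arrays of set 1, 1 with the first knockdown series alone and 1 with the second alone. It ranged over 2 to 4 when 1 array was left out. The number called higher, 0, became 1 (Pbx4) with genes above the limit on all 9 arrays, with the set as a replicate block, with array weights, with the set as a random block (a consensus correlation of 0.22) and without set 1, and ranged over 0 to 1 when 1 array was left out. Under the block, 5 homeobox genes were lower. The cause of these changes was not tested. Requiring all 9 arrays left 25 genes tested in place of 42, by construction. Pknox1 was not called in 6 alternatives, Msx3 in 13 and Dlx3 in 9 of 23. Meis2 was called in 1, and Hoxc10 in 2, with a log2 fold change of -0.99 without set 1.

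Over all genes tested, 706 were higher and 410 lower. The counts were 185 and 60 with the first series alone, 285 and 121 with the second, 344 and 164 with the mean of a set's arrays, 437 and 276 with no filter, 897 and 538 with 50 added, 941 and 578 with eBayes run with trend and robust, 1137 and 751 with the replicate block, 1079 and 750 with the random block and 506 and 225 without set 1. Without 1 array they ranged over 373 to 664 and 169 to 396. Normalization of the unprocessed signals with neqc was not run, since their columns could not be tied to samples.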

Other observations

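Proteins that work with homeodomain factors, or that hold homeobox genes silent or active, were read in the same fit, in which 6.56% of all genes were higher and 3.81% lower. Of 16 tested cofactors, 1 was higher, Tle4, a Groucho-family corepressor, with a fold change of 0.46 on the log2 scale (limma adjusted p = 0.0497), and 0 were lower. Of 24 tested Polycomb genes, 1 was higher and 2 lower. Scmh1, which associates with the Polycomb repressive complex, averaged 599 ± 82.5 in Med12 knockdown cells (SD, n = 6) and 91.4 ± 44.2 in NS control cells (SD, n = 3), or 2.80 on the log2 scale (limma adjusted p = 2.87e-04). Eed, a core subunit of the complex that methylates H3K27, averaged 633 ± 78.7 in Med12 knockdown cells (SD, n = 6) and 940 ± 40.0 in NS control cells (SD, n = 3), or -0.58 on the log2 scale (limma adjusted p = 0.0255). Pcgf5, a RING complex subunit, had a fold change of -0.93 on the log2 scale (limma adjusted p = 0.0400). Of 14 tested Trithorax genes and H3K27 demethylases, 1 was lower, the demethylase Kdm6b, with a fold change of -0.49 on the log2 scale (limma adjusted p = 0.0377). The medians of the lists were -0.05 for the cofactors, -0.14 for Polycomb and 0.04 for Trithorax genes and demethylases, beside 0.00 over all genes tested.

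Among the cell type markers, Esrrb, a pluripotency factor, had a fold change of -1.03 on the log2 scale (limma adjusted p = 0.0181), and the other 5 pluripotency genes tested were not called. Of 6 astrocyte genes tested, Aldh1l1 had a log2 fold change of 1.04 (adjusted p = 0.0400) and Aldoc of 0.65 (adjusted p = 0.0419 from limma). None of the 3 neuronal, 3 oligodendrocyte, 4 mesoderm and fibroblast, 2 microglia and blood and 1 endoderm genes tested was called. With the set as a replicate block S100b and Dcx were also higher and Klf4 was lower.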
